A study of Mus musculus with 12 samples.

Results

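Liver tumors of 3 mice given the mTOR inhibitor MLN0128 were compared with tumors of 3 mice given vehicle. These were 6 of the 12 libraries of the series and were taken by their treatment label alone. Every autosomal gene with at least 0.5 FPKM (fragments scaled to transcript length and library size, the deposited unit) in at least 3 of the 12 libraries was followed in both directions. That left 13883 autosomal genes of the 14397 that passed this filter and of the 17007 listed. All 6 tumors came from *Rictor* fl/fl *Tsc2* fl/fl mice on a C57BL/6J background, whose hepatocytes had taken up plasmids for c-MYC, MCL1 and Cre recombinase by hydrodynamic tail vein injection. Both groups therefore carried both oncogenes and are labelled RictorKOTsc2KO, with Cre driven by a CMV promoter in whichever hepatocytes the plasmids reached, while other cells of the tumor kept *Rictor* and *Tsc2*. MLN0128 was given by gavage at 1 mg/kg per day on 6 days of each week for 3 weeks from day 6 after injection, and mice were killed at 3.7 weeks. The labels and methods give this schedule, whereas the results text of the study speaks of 3 days for the RNA, and the libraries were used as labelled. The methods mention mice of both sexes, and ages were not given in the sources used here. The remaining libraries, 3 tumors of mice given everolimus and 3 normal livers of wild-type C57BL/6 mice, entered the filter and the estimate of the spread.

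mTOR is a protein kinase that works in a pair of complexes. mTORC1, built on Raptor and held in check by TSC1 and TSC2, drives protein synthesis through p70S6K and by releasing eIF4E from 4EBP1, and it restrains autophagy and the making of lysosomes. mTORC2, built on Rictor, phosphorylates AKT. MLN0128 blocks the kinase of both complexes, so in tissue without Rictor it acts on mTORC1. ATF4, a transcription factor of the amino acid and endoplasmic reticulum stress responses, is among the proteins whose synthesis mTORC1 raises. TFEB and TFE3, which switch on lysosomal genes through E-boxes, are kept in the cytoplasm by mTORC1.

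Promoter windows are shown for genes of the ATF4 response, the list with the lowest median change, and for lysosomal genes, which bear on the E-boxes above. ATF4 pairs with C/EBP proteins on an element whose core is TGATGNAA, and E-boxes read CACGTG. The windows below are the 250 bases before the start site of 6 genes (RefSeq, GRCm38.p6), written 5′ to 3′ on the gene's strand, with each match on either strand in capitals. *Chac1* and *Slc7a11* were named by rule, and *Atf3*, *Asns*, *Lamp1* and *Ctsf* were chosen after their values were seen, to show a strong fall, a smaller difference that missed the test, a fall and a rise. The positions are chr2:119350992-119351241 (plus strand) for *Chac1*, chr3:50443614-50443863 (minus) for *Slc7a11*, chr1:191183334-191183583 (minus) for *Atf3*, chr6:7693210-7693459 (minus) for *Asns*, chr8:13158911-13159160 (plus) for *Lamp1* and chr19:4854915-4855164 (plus) for *Ctsf*.
Chac1: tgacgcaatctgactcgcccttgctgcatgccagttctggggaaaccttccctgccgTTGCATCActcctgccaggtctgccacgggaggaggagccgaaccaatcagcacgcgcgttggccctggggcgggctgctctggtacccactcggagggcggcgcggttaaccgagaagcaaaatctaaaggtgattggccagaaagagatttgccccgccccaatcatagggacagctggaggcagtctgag
Slc7a11: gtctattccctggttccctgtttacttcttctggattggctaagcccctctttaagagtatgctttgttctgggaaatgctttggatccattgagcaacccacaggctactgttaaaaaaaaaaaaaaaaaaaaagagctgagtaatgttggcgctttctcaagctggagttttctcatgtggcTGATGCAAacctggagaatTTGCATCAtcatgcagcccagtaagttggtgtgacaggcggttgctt
Atf3: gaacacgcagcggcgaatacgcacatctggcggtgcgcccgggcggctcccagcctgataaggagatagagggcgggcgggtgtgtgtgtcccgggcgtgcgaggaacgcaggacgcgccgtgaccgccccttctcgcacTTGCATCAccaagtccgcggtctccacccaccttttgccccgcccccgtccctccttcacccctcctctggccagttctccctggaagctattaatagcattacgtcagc
Asns: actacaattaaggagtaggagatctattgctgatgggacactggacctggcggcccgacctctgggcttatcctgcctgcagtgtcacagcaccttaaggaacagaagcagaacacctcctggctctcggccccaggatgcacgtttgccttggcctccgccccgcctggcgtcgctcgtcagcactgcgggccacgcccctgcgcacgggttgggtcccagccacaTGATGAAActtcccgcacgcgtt
Lamp1: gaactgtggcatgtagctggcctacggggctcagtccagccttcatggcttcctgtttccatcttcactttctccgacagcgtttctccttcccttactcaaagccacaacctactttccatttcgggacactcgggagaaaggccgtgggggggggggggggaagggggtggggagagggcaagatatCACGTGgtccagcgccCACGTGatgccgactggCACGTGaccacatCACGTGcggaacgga
Ctsf: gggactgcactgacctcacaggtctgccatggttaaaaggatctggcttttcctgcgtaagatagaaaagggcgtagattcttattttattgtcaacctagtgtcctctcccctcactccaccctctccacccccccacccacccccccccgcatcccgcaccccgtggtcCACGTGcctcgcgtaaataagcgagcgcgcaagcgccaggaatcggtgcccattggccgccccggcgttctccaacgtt
The core lay once in the windows of *Chac1*, *Atf3* and *Asns* and 2 times in that of *Slc7a11*. *Lamp1* had 4 E-boxes and *Ctsf* had 1, and their expression differed in opposite directions. In windows that also held the 50 bases after the start, TGATGNAA was found for 11 of 31 ATF4 list genes with a promoter (35.5%) and for 285 of 9881 tested autosomal genes (2.88%). CACGTG was found for 14 of 38 lysosomal genes (36.8%) against 11.7% of all genes. The ATF4 and lysosomal lists were written from general knowledge of these genes, so their shares are not a result of these data. Among genes past treat with a promoter, TGATGNAA was found for 20 of 168 lower ones (11.9%) and 3 of 40 higher ones (7.5%). CACGTG was found for 17 (10.1%) and 5 (12.5%) of them. The lower ones include genes of the ATF4 list, so their TGATGNAA share is not separate from that of the list. These are matches of letters and not measured binding.

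Reads recovered from the FPKM and exon lengths numbered 18691117 to 20301533 per vehicle library and 17475776 to 22596443 per MLN0128 library. Across genes, which are not independent replicates, log2 values of pairs of libraries correlated with r from 0.978 to 0.990 with vehicle and from 0.958 to 0.977 with MLN0128. The MLN0128 libraries were of mixed sex content. *Xist* stood at 191 and 155 FPKM in MLN0128 replicates 1 and 2, where the summed FPKM of 4 Y-linked genes was 0. In replicate 3 and in the vehicle libraries *Xist* was at most 0.0699 FPKM and the Y-linked sum lay between 22.6 and 31.3 FPKM. X and Y genes were left out, and counts are also given with MLN0128 replicate 3 as the only treated library, in a fit that takes its spread from the other groups. These are bulk samples, in which fewer cells of a type and less RNA per cell cannot be told apart, and p-values measure the spread between these mice.

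The deleted genes were still detected. *Tsc2* (chromosome 17, 24595816 to 24632630 of GRCm38, minus strand, protein-coding) was at 2.24, 2.01 and 2.31 FPKM with vehicle and 3.96, 2.81 and 3.40 with MLN0128, beside 5.21, 5.32 and 4.50 in normal liver. The change was 0.46 on the log2 scale (SE 0.115, adjusted p = 0.0114), and it missed the test without MLN0128 replicate 1, at 0.36. *Rictor* (chromosome 15, 6708379 to 6800401, plus strand) was at 1.19, 1.5 and 1.05 FPKM with vehicle, 2.21, 1.65 and 1.82 with MLN0128 and 1.99, 1.65 and 2.57 in normal liver. The difference between the tumors was 0.37 (SE 0.135, adjusted p = 0.0584). FPKM over the whole gene do not single out the floxed exons. *Myc* overlapped between the groups, at 0.807, 1.62 and 1.33 FPKM against 0.907, 1.38 and 1.15, and the values do not separate the injected from the mouse gene.
*Mcl1* (chromosome 3, 95658788 to 95663176, plus strand), which encodes an anti-apoptotic BCL2 family protein and was also one of the injected oncogenes, was among the largest rises. It was at 211, 143 and 176 FPKM with vehicle and 1120, 992 and 461 with MLN0128 (log2 fold change 2.19, SE 0.293, adjusted p = 0.000461). Replicate 3 was the lowest of the treated libraries. The sources used here do not say which species' MCL1 was injected, and reads of plasmid and mouse transcripts cannot be told apart here.

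More genes were lower than higher with MLN0128 when a sizeable change was required. In limma's treat test, which here asks for a change beyond 1.5-fold and is Benjamini-Hochberg adjusted, 225 of the 13883 autosomal genes were lower (1.62%) and 65 were higher (0.468%), or 2.09% in all. With limma's moderated test, which asks for any change, 2365 genes fell (17.0%) and 2073 rose (14.9%). The balance of this count turned with plain library totals as the scaling, which gave 1746 lower and 3226 higher. This moderated test gives every adjusted p below unless treat is named. Over all 13883 genes the median log2 fold change was -0.01, with 5th and 95th percentiles of -0.94 and 0.78. The 225 genes had a median change of -1.74, and 217 of them were protein-coding. The 65 genes had a median change of 1.37, and 25 of them were of other types. In all 225 and all 65 the groups did not overlap, so the separation of a gene past treat is no further result. Most genes named below were picked for a large change past a test, and for these too separation is description only.
Both counts moved with the libraries used. Leaving out MLN0128 replicate 1 gave 96 and 15, replicate 2 gave 164 and 37, and replicate 3 gave 261 and 122. Leaving out vehicle replicate 1 gave 128 and 22, replicate 2 gave 225 and 43, and replicate 3 gave 109 and 25. By the moderated test, leaving out MLN0128 replicate 1, 2 or 3 gave 1639, 2162 and 2345 lower and 1285, 1755 and 2211 higher. Leaving out vehicle replicate 1, 2 or 3 gave 1798, 2106 and 1691 lower and 1519, 1756 and 1401 higher. These are the background for list counts with a library left out. Plain library totals shifted the median by 0.10 and gave, by treat, 176 lower and 188 higher, a share of lower calls of 48.4% against 77.6%. With MLN0128 replicate 3 alone, 27 and 3 genes passed treat, and 1040 genes fell (7.49%) and 663 rose (4.78%) by the moderated test. Calls were thus fewer in that fit over all genes, which is the background for the counts given for it below.

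**Figure D1:**
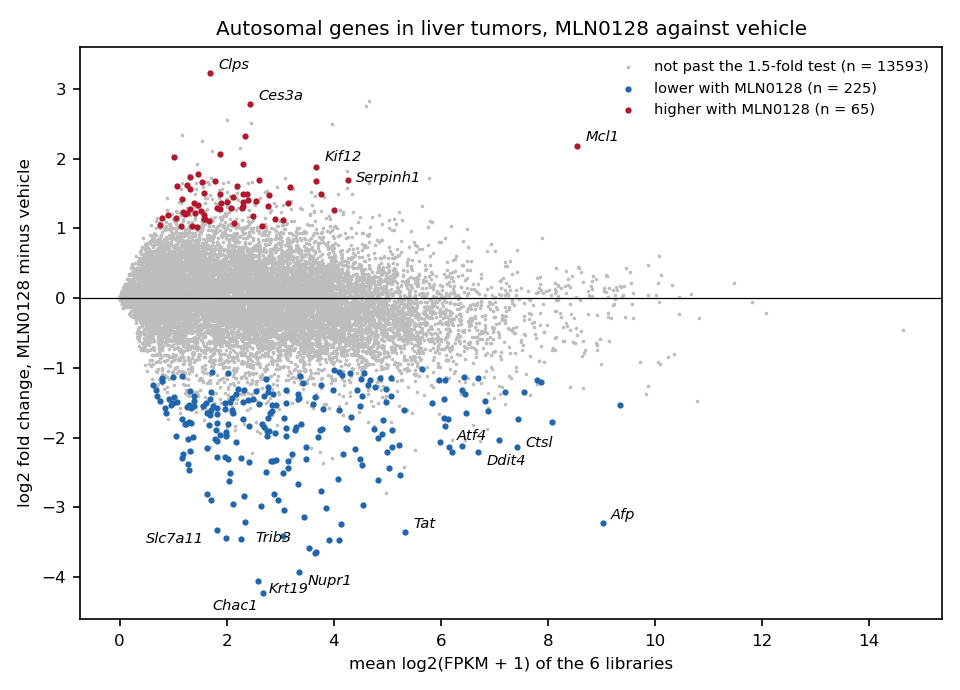
Each point is an autosomal gene, with its mean log2(FPKM + 1) over the 6 libraries on the x axis and its log2 fold change (MLN0128 minus vehicle) on the y axis. The 225 genes in blue and the 65 in red passed the treat test against 1.5-fold, and the blue points reach further from 0 (down to -4.23) than the red ones (up to 3.23).

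Genes of the ATF4 response fell together. Of 35 tested members, 29 fell and 0 rose, their median log2 fold change was -1.61, and all 35 changes were negative. Between 25 and 28 fell when any 1 library was left out, and with MLN0128 replicate 3 alone 22 fell. In 32 of the 35, all 3 MLN0128 values lay below all 3 vehicle values, as they did in 23.4% of all tested genes (45.6% did not overlap in either direction). The list was written with earlier results of these data known. Its 36th gene, *Slc7a3*, is on X and was not tested.
*Chac1* (chromosome 2, 119351229 to 119354381, plus strand, protein-coding) encodes an enzyme that breaks down glutathione and showed the largest fall of all autosomal genes past treat. It was at 32.5, 20.8 and 27.9 FPKM with vehicle and 0.710, 0.287 and 0.460 with MLN0128 (log2 fold change -4.23, SE 0.224, adjusted p = 1.99e-06). *Nupr1*, a small stress-induced chromatin protein, went from 35.9, 38.7 and 42.1 FPKM to 2.44, 0.448 and 2.58 (-3.93, SE 0.534, adjusted p = 0.000483). *Trib3* (chromosome 2, 152337422 to 152344032, minus strand), a pseudokinase that binds AKT and ATF4, went from 35.0, 49.5 and 35.2 to 2.30, 2.32 and 2.5 FPKM (-3.58, SE 0.382, adjusted p = 0.000135). The 12 largest falls and the 12 largest rises were chosen among genes without overlap, so their separation is no result. *Adm2*, a secreted peptide of the calcitonin family, fell by 3.45 on the log2 scale (SE 0.301, adjusted p = 5.16e-05).
The regulators of the response were lower too. *Atf4* itself, named after its values were seen like the other genes of this paragraph, was at 148, 168 and 130 FPKM with vehicle and 33.8, 35.6 and 30.0 with MLN0128 (-2.13, SE 0.188). Each treated value was under each vehicle value. *Ddit3*, which encodes the pro-apoptotic factor CHOP, stood at 13.3, 14.3 and 13.1 FPKM against 3.14, 2.52 and 2.86 (-1.93, SE 0.195). *Atf3*, a stress-induced partner of ATF4, stood at 14.2, 35.0 and 16.2 FPKM against 1.80, 1.05 and 2.91 (-2.90, SE 0.435). *Fgf21*, a hormone that the liver secretes under nutrient stress, stood at 9.91, 9.93 and 13.6 FPKM against 0.889, 0.345 and 0.484 (-2.95, SE 0.493). All 4 were past treat and picked for strong falls, so the separation of their groups is no further result. Their changes passed the moderated test in each fit with a library left out.
Not every member of the list passed. *Asns*, asparagine synthetase, was at 102, 107 and 94.9 FPKM with vehicle and 47.5, 47.5 and 54.0 with MLN0128. Its groups did not overlap, yet the change of -1.01 (SE 0.411) missed the test at an adjusted p of 0.0804, in a fit whose spread also comes from normal liver and everolimus. *Psat1* (-1.58, adjusted p = 0.0535), *Stc2* (-1.08), *Phgdh* (-0.53), *Slc7a1* (-0.52) and *Gdf15* (-0.40) likewise missed it.

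**Figure D2:**
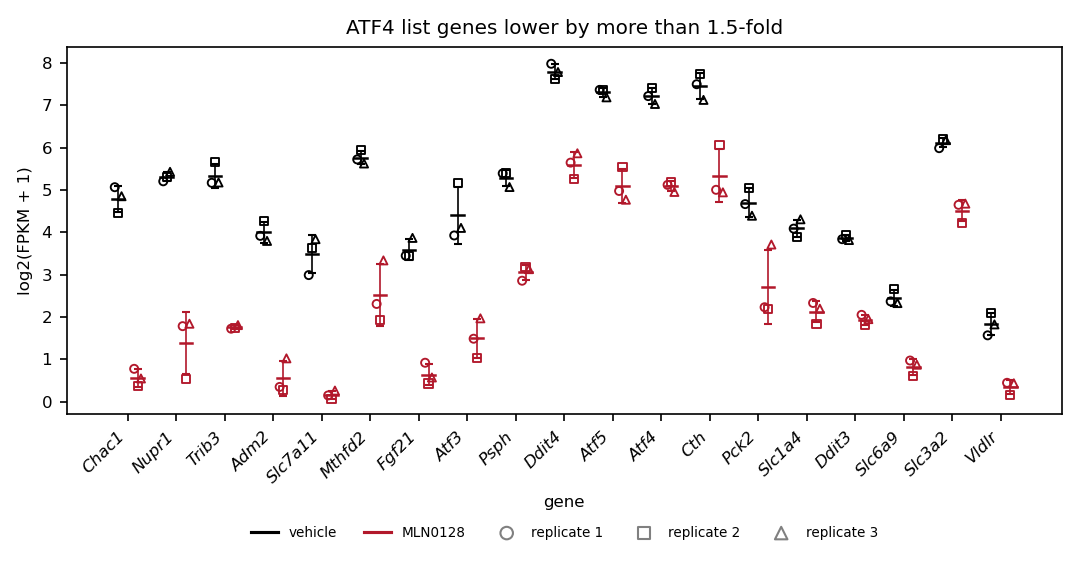
Points show log2(FPKM + 1) in each of the 3 vehicle libraries (black) and 3 MLN0128 libraries (red) for the members of the ATF4 list past the treat test, with bars for the mean and SD. *Chac1* is at the left with the largest fall (-4.23). For every gene shown all red points lie below all black ones, as for all 225 lower genes past treat, so this follows from the choice of genes.

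Of 20 cytosolic aminoacyl-tRNA synthetases, which load amino acids onto tRNAs, 11 fell and 1 rose (median -0.57), and 9 to 11 fell with each library left out. *Aars*, for alanine, went from 22.2, 21 and 24.1 FPKM to 4.56, 3.54 and 5.08 (-2.13, SE 0.162, adjusted p = 2.14e-05). *Nars*, for asparagine, was at 175, 218 and 175 FPKM against 63.8, 62.9 and 75.4 (-1.47, SE 0.201). Neither overlapped between groups. The member that rose, *Qars*, for glutamine, changed by 0.57. With MLN0128 replicate 3 alone, 5 of the 20 fell.
Of 20 enzymes of serine, glycine and one-carbon metabolism, 8 fell and 1 rose (median -0.45). Only 5 fell without MLN0128 replicate 1, and 5 without vehicle replicate 1. *Mthfd2*, the mitochondrial folate enzyme that many tumors express, was at 51.8, 60.2 and 48.4 FPKM with vehicle and 3.95, 2.81 and 9.10 with MLN0128 (-3.24, SE 0.486, adjusted p = 0.000757). *Psph*, the last enzyme of serine synthesis, fell by 2.23 on the log2 scale (SE 0.257), and *Gldc*, which splits glycine in mitochondria, by 1.32 (SE 0.113). The *Aldh1l2* call (-1.40, adjusted p = 0.0477) was lost in 5 of the 6 fits that leave a library out, all but the one without MLN0128 replicate 3. *Mthfd2*, *Psph*, *Aldh1l2* and some other members of this list are also on the ATF4 list, so their falls are not a separate result.
Enzymes of the urea cycle and of amino acid breakdown did not go the same way, with 3 lower and 2 higher of 29 (median -0.24), below the share of all genes. The median was 0.14 without MLN0128 replicate 3. *Tat*, tyrosine aminotransferase, was at 150, 75.4 and 185 FPKM with vehicle and 14, 12.7 and 8.62 with MLN0128 (-3.36, SE 0.468, adjusted p = 0.000525), and it was the 1 member past treat.

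Genes of glutathione and redox defence, many of them targets of NRF2, fell. Of 25 members 20 fell and 0 rose (median -1.16), 18 to 21 fell with each library left out, and 14 fell with MLN0128 replicate 3 alone. *Slc7a11* (chromosome 3, 49892526 to 50443614, minus strand) encodes the cystine importer that supplies glutathione synthesis and belongs to both this list and that of ATF4. It was at 6.94, 11.4 and 13.3 FPKM with vehicle and 0.106, 0.0404 and 0.198 with MLN0128 (-3.33, SE 0.223, adjusted p = 9.81e-06). *Gsta1*, a glutathione transferase with close copies that can share reads, went from 16.4, 7.10 and 25.4 to 0.442, 0.245 and 1.62 FPKM (-3.21, SE 0.438). *Cbr3*, a carbonyl reductase, was at 32.9, 21.4 and 43.9 FPKM against 2.55, 1.61 and 4.37 (-3.14, SE 0.328). In all 3 genes every treated value lay below the lowest vehicle value.
*Srxn1*, which repairs peroxiredoxins, fell by 2.67 (SE 0.429). *Hmox1*, heme oxygenase, named after its values were seen, was at 28.8, 45.2 and 50.4 FPKM against 5.55, 3.80 and 9.17 (-2.60, SE 0.385). The gene of NRF2 itself, *Nfe2l2*, changed by 0.02 (adjusted p = 0.88), and *Gclm*, the regulatory subunit of glutamate-cysteine ligase, was at 25.5, 23 and 30.4 FPKM against 25.1, 30.0 and 22.5 (-0.02). Values of both overlapped between the groups.

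Chaperones of the endoplasmic reticulum were lower by smaller steps. Of 25 genes of the unfolded protein response 18 fell and 1 rose (median -0.78), 17 fell in each fit without a library, and 7 fell with MLN0128 replicate 3 alone. *Dnajb11*, a co-chaperone of BiP, went from 38.9, 36.3 and 36.4 to 14.5, 14.4 and 19.5 FPKM (-1.17, SE 0.144, adjusted p = 0.000296). *Sdf2l1*, another co-chaperone, was at 57.2, 32.5 and 49.0 FPKM against 7.50, 12.1 and 20.7 (-1.78, SE 0.316), and its call was lost with MLN0128 replicate 3 alone. The groups did not overlap in either. Of 32 proteasome subunits 20 fell and 0 rose (median -0.48), and 5 fell with replicate 3 alone. *Psmd8* of the proteasome lid fell most, from 84.4, 103 and 90.2 to 37.6, 36.2 and 48.1 FPKM (-1.17, SE 0.140).

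Lysosomal genes fell rather than rose. Among 47 tested hydrolases and membrane proteins 30 fell and 1 rose (median -0.61), 24 to 29 fell with each library left out, and 17 fell with MLN0128 replicate 3 alone. *Ctsl* (chromosome 13, 64359337 to 64370890, minus strand), the protease cathepsin L, stood at 346, 358 and 377 FPKM with vehicle and 69.6, 86.2 and 89.1 with MLN0128 (-2.14, SE 0.146, adjusted p = 1.03e-05). *Hexa*, a hexosaminidase subunit, went from 49.4, 43.2 and 61.5 to 12.4, 12.3 and 14.8 FPKM (-1.88, SE 0.175). *Neu1*, which removes sialic acid, went from 39.1, 31.1 and 33.6 to 7.97, 9.80 and 8.60 FPKM (-1.86, SE 0.165). Replicates were tight and the groups well apart. *Acp5*, an acid phosphatase that macrophages make, fell by 1.89 (SE 0.198).
*Lamp1*, the membrane protein whose window holds 4 E-boxes, was at 243, 227 and 262 FPKM with vehicle and 110, 132 and 110 with MLN0128 (-1.05, SE 0.130). *Ctsf*, cathepsin F, with 1 E-box, was the member that rose, from 13.5, 14.3 and 14.4 to 38.8, 47.6 and 18.8 FPKM (1.16, SE 0.297, adjusted p = 0.012). Its call was lost without MLN0128 replicate 1 (1.04, adjusted p = 0.0521), and with replicate 3 alone the change was 0.39.
Of 17 subunits of the V-ATPase, the proton pump that acidifies lysosomes, 13 fell and 0 rose (median -0.77), 12 or 13 fell with each library left out, and 10 fell with replicate 3 alone. *Atp6v1g1* was at 136, 136 and 112 FPKM against 57.0, 57.1 and 58.7 (-1.13, SE 0.114, adjusted p = 9.82e-05), with no overlap. Of 29 autophagy genes 11 fell and 2 rose (median -0.37). The autophagy receptor *Sqstm1* went from 177, 213 and 239 to 79.8, 59.6 and 93.5 FPKM (-1.43, SE 0.224). Macrophages are rich in lysosomes. Of 11 tested markers of Kupffer cells and macrophages 5 fell and 0 rose, and their summed level ran from 174 to 245 FPKM with vehicle and from 82.7 to 156 with MLN0128. Their part in the lysosomal values was not tested.

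**Figure D3:**
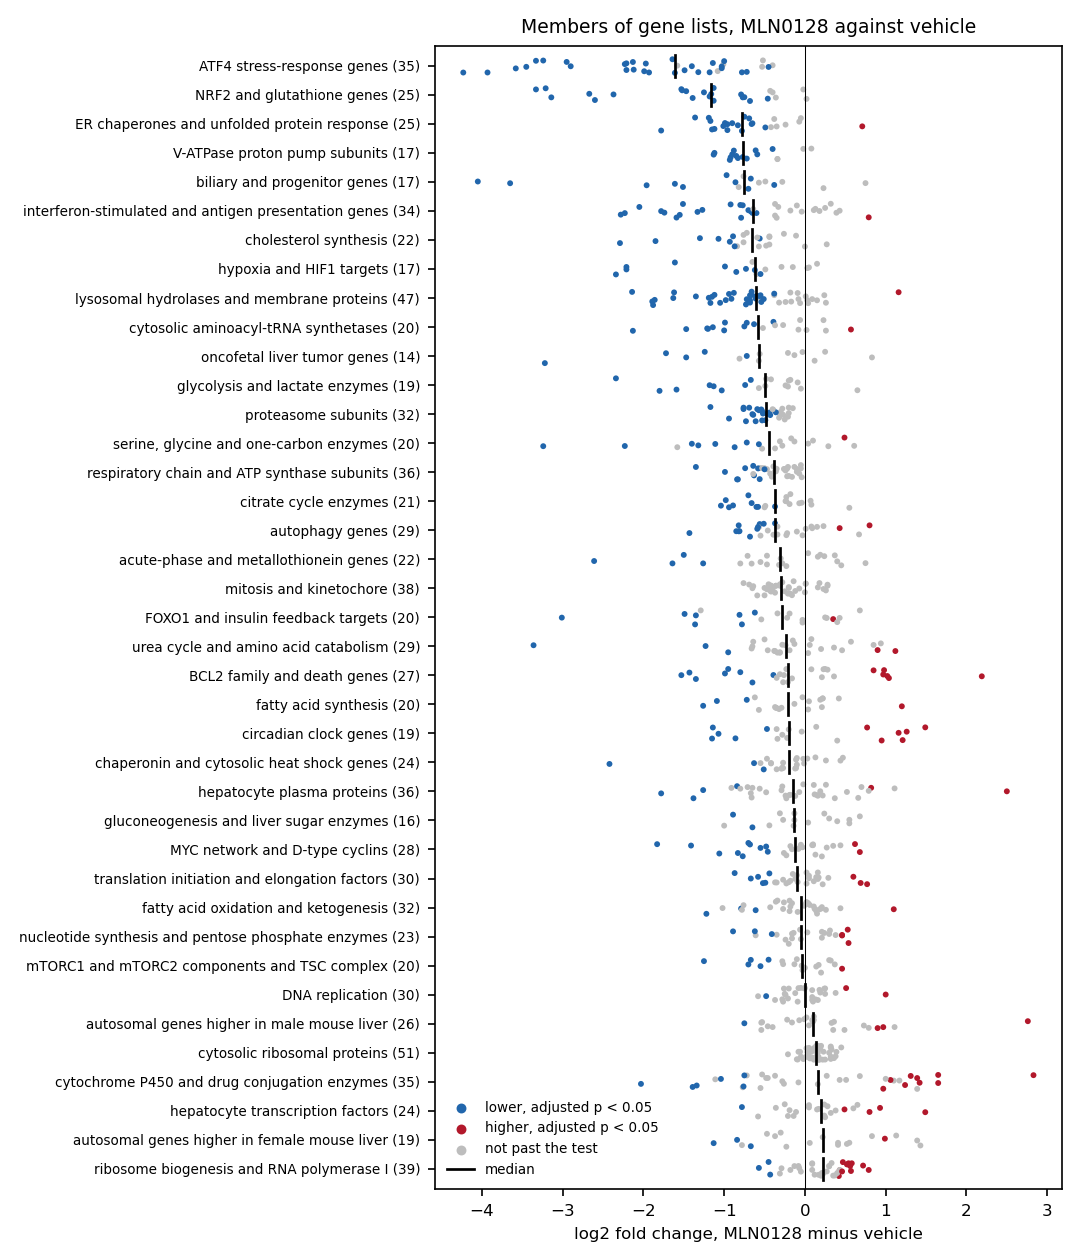
Points are the tested members of each gene list (number in brackets), placed by log2 fold change (MLN0128 minus vehicle) and colored blue where they fell, red where they rose and gray where they missed the moderated test. Black bars mark medians, which run from -1.61 for the ATF4 list at the top to 0.22 for ribosome biogenesis at the bottom.

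Biliary and progenitor genes of the tumors fell, and so did a smaller share of the fetal genes. Of 17 tested biliary and progenitor genes 10 fell and 0 rose (median -0.76), 7 to 12 fell with each library left out, and 3 fell with replicate 3 alone. *Krt7* and *Muc1* were below the filter. *Krt19* (chromosome 11, 100140810 to 100148665, minus strand), the keratin of bile ducts, went from 29.6, 9.49 and 44.0 to 0.493, 0.152 and 0.834 FPKM (-4.05, SE 0.420, adjusted p = 0.000114). *Cldn4*, a tight junction protein, went from 24.1, 79.5 and 42.6 to 2.27, 1.09 and 5.50 FPKM (-3.65, SE 0.573). Vehicle libraries varied several-fold among themselves for both. Markers of biliary cells moved with these genes: 3 of 5 tested fell, and their summed level was 41.8 to 96.7 FPKM with vehicle and 16.6 to 32.8 with MLN0128. The share of biliary cells was not tested.
*Afp* (chromosome 5, 90490737 to 90508907), alpha-fetoprotein, was at 1950, 1350 and 1520 FPKM with vehicle and 145, 210 and 159 with MLN0128 (-3.22, SE 0.251, adjusted p = 2.52e-05). *Spink1*, a trypsin inhibitor, went from 139, 102 and 119 to 29.9, 54.8 and 27.3 FPKM (-1.72, SE 0.266). Neither overlapped. Of 14 tested oncofetal genes 5 fell and 0 rose, and the imprinted fetal genes *H19* (-0.21, adjusted p = 0.68) and *Igf2* (-0.13, adjusted p = 0.68) did not pass the test. *Gpc3* and *Bex2* are on X, and 4 members were below the filter. Of 8 hepatocyte markers 2 fell, and their summed level was 2170 to 4440 FPKM with MLN0128, 4200 to 6330 with vehicle and 79800 to 98200 in normal liver. Of 5 erythroid markers 1 fell, and 0 of 10 endothelial markers passed limma's moderated test.

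Interferon-stimulated genes were lower. Of 34 tested genes of the interferon response and antigen presentation 18 fell and 1 rose (median -0.65), 16 to 19 fell with each library left out, and 9 fell with replicate 3 alone. *Rsad2*, an antiviral enzyme, stood at 7.25, 7.34 and 8.15 FPKM with vehicle and 0.625, 0.682 and 0.993 with MLN0128 (-2.28, SE 0.195, adjusted p = 4.3e-05). *Isg15*, a ubiquitin-like protein, went from 26.4, 12.7 and 20.7 to 2.24, 3.17 and 4.87 FPKM (-2.23, SE 0.282). *Oasl1* went from 6.03, 4.71 and 8.21 to 0.324, 0.810 and 1.17 FPKM (-2.05, SE 0.265). The groups were apart in all 3. *Irf9* (-0.18), which encodes a factor that carries the interferon signal, missed the test. Of 4 tested neutrophil markers and of 2 each of T or NK cells and B cells, 0 passed limma's moderated test. Of the 11 tested macrophage markers, 5 were lower like this list. *Adgre1* (-0.18), *Csf1r* (-0.2) and *Lyz2* (-0.02) were among those that missed the test. The part of macrophages in this list was not tested.

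Genes of cell division differed among the treated libraries. Of 38 genes of mitosis and the kinetochore 0 passed limma's moderated or treat test or the same test on recovered reads with voom (median -0.30). At an unadjusted p under 0.05, 3 were lower, a smaller share than the 17.0% of all genes lower after adjustment. Against the vehicle mean, their median level was -0.44 in MLN0128 replicate 1, -0.92 in replicate 2 and 0.52 in replicate 3. Without replicate 3, 23 of the 38 fell (median -0.71), and with replicate 3 alone 7 rose and 0 fell. *Cdc20*, the activator of the anaphase-promoting complex, was at 56.8, 62.5 and 57.1 FPKM with vehicle and 44.9, 27.3 and 113 with MLN0128. *Ccnb2*, cyclin B2, was at 36.6, 35.5 and 29.8 FPKM against 20.7, 17 and 46.4. Of 30 DNA replication genes 1 fell and 2 rose. *Pold1*, the catalytic subunit of DNA polymerase delta, rose from 4.45, 3.55 and 3.28 to 8.64, 6.19 and 11.3 FPKM (1.00, SE 0.202, adjusted p = 0.00354).
In the MYC network and its cell cycle partners, 10 of 28 genes fell and 2 rose (median -0.12). *Ccnd2*, cyclin D2, went from 7.02, 9.23 and 11.2 to 1.49, 1.40 and 2.75 FPKM (-1.83, SE 0.271, adjusted p = 0.000708). *E2f2*, a factor of S phase entry, went from 3.63, 3.10 and 3.08 to 0.563, 0.519 and 0.745 FPKM (-1.41, SE 0.147). *Mxd1*, a MAX partner that opposes MYC, fell by 1.06 (SE 0.113). All 3 calls held with replicate 3 alone.
Of 51 cytosolic ribosomal protein genes 0 passed limma's moderated or treat test or voom (median 0.14). At an unadjusted p under 0.05, 2 were higher, a smaller share than the 14.9% of all genes higher after adjustment. With plain library totals 6 rose, beside 3226 of all 13883 genes. Of 39 genes of ribosome biogenesis 3 fell and 11 rose (median 0.22). Leaving out MLN0128 replicate 1 left 3 that rose, vehicle replicate 1 left 4 and vehicle replicate 3 left 5, against 19 with plain library totals. *Polr1a*, the largest subunit of RNA polymerase I, rose from 9.87, 12.5 and 11.9 to 24.8, 21.5 and 16.0 FPKM (0.79, SE 0.177), a call lost with MLN0128 replicate 3 alone. *Eif4ebp1*, which encodes 4EBP1, stood at 81.1, 90.4 and 87.0 FPKM against 33.8, 37.3 and 36.0 (-1.25, SE 0.226, adjusted p = 0.00206) and was the largest change among 20 mTOR pathway components, of which 5 fell and 1 rose.

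**Figure D4:**
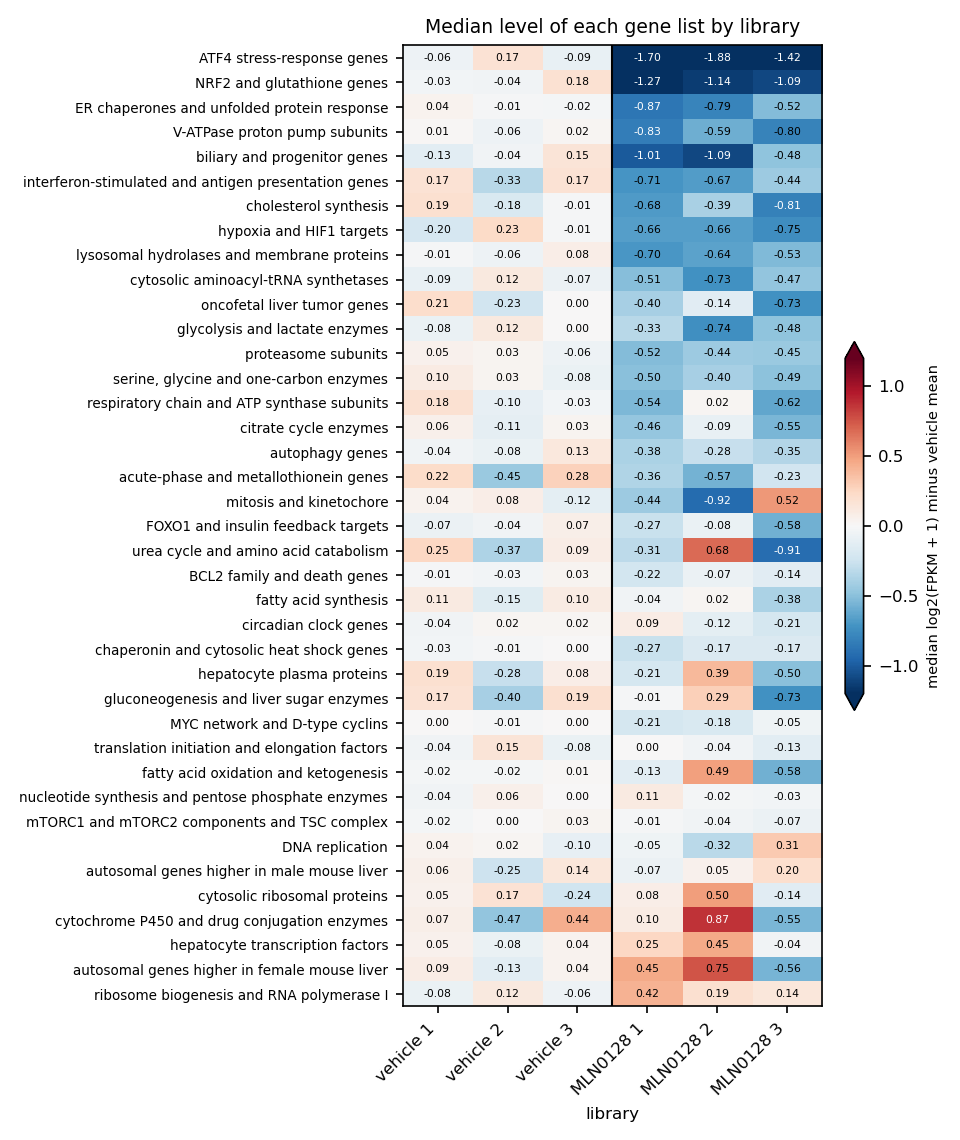
Cells give, for each gene list and each of the 6 libraries, the median over members of log2(FPKM + 1) minus the vehicle mean. The ATF4 list is below vehicle in all 3 MLN0128 libraries (-1.70, -1.88 and -1.42), while the mitosis list is at -0.44, -0.92 and 0.52.

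Lists of fuel metabolism differed. Of 19 genes of glycolysis and lactate 8 fell and 0 rose (median -0.49), 8 or 9 fell with each library left out, and 3 fell with replicate 3 alone. *Slc2a1*, the glucose transporter GLUT1, stood at 12.6, 29.9 and 17.9 FPKM against 2.47, 2.37 and 4.21 (-2.34, SE 0.330, adjusted p = 0.000557). *Tpi1*, triose phosphate isomerase, stood at 336, 348 and 322 FPKM against 140, 150 and 152 (-1.18, SE 0.149). Neither overlapped. Of 17 hypoxia genes 9 fell and 0 rose (median -0.62), among them *Ndrg1* (-2.21, SE 0.385), *Ero1l* (-1.61, SE 0.198) and *Ddit4* (-2.21, SE 0.397), an inhibitor of mTORC1 whose call was lost with replicate 3 alone. *Slc2a1* is on both the glycolysis and hypoxia lists, and *Ddit4* is also on the ATF4 list.
Of 21 citrate cycle enzymes 9 fell and 0 rose (median -0.37), and *Cs*, citrate synthase, went from 49.9, 52.5 and 56.1 to 25.6, 21.8 and 28.4 FPKM (-1.04, SE 0.163). Of 36 subunits of the respiratory chain and ATP synthase 10 fell and 0 rose (median -0.38), with all 36 changes negative. That count moved with single libraries, as the counts over all genes did. Leaving out MLN0128 replicate 1, 2 or 3 gave 4, 19 and 5, and leaving out vehicle replicate 1, 2 or 3 gave 4, 8 and 6. Of 22 cholesterol synthesis genes 8 fell and 0 rose (median -0.65). Leaving out MLN0128 replicate 1, 2 or 3 gave 2, 9 and 5, and leaving out vehicle replicate 1, 2 or 3 gave 3, 7 and 4. *Msmo1*, a sterol methyl oxidase, was at 10.4, 8.98 and 9.61 FPKM against 0.923, 1.32 and 1.29 (-2.29, SE 0.333, adjusted p = 0.000651). *Sqle*, squalene epoxidase, went from 17.7, 17.9 and 17.6 to 4.62, 2.94 and 5.29 FPKM (-1.85, SE 0.309). The treated values of both lay below all vehicle values.
Other fuel lists had shares of calls below those of all genes. Of 32 genes of fatty acid oxidation and ketogenesis 3 fell and 1 rose (median -0.05), of 20 of fatty acid synthesis 3 fell and 1 rose (median -0.21), and of 16 of gluconeogenesis and liver sugar metabolism 2 fell and 0 rose (median -0.13).

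Genes of the BCL2 family and of cell death split. Of 27 tested genes 8 fell and 6 rose (median -0.21), and 5 fell and 3 rose with replicate 3 alone. *Bcl2l1*, which encodes BCL-XL, a protector from apoptosis, went from 10.9, 12.1 and 12.9 to 2.93, 3.88 and 3.73 FPKM (-1.53, SE 0.181, adjusted p = 0.000252). *Pmaip1*, which encodes NOXA, an antagonist of MCL1, went from 8.24, 13.4 and 10.2 to 4.55, 1.33 and 4.93 FPKM (-1.43, SE 0.294). Both pairs of groups were apart. Some pro-apoptotic members rose, named after their values were seen. *Bcl2l11* (BIM) went from 2.32, 2.87 and 2.72 to 8.49, 5.88 and 5.07 FPKM (1.02, SE 0.161). *Bmf* went from 1.28, 1.74 and 1.37 to 4.52, 3.60 and 3.49 FPKM (0.98, SE 0.156). *Bbc3* (PUMA) went from 32.8, 26.2 and 32.5 to 62.2, 71.0 and 49.8 FPKM (0.97, SE 0.197), a call lost with replicate 3 alone (0.70, adjusted p = 0.122). Another pro-apoptotic gene, *Hrk*, outside the list and also named after its values were seen, fell from 5.09, 4.99 and 5.07 to 0.831, 0.868 and 1.42 FPKM (-1.58, SE 0.221, adjusted p = 0.029 by treat).

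The remaining genes of the 12 largest falls were of mixed function. *Ptgr1*, a reductase of prostaglandins, went from 54.1, 35.9 and 61.8 to 2.82, 3.54 and 4.42 FPKM (-3.47, SE 0.186, adjusted p = 1.99e-06). *Sgk1*, a kinase that mTORC2 activates, went from 27.9, 22.8 and 27.6 to 1.69, 1.47 and 1.47 FPKM (-3.41, SE 0.287, adjusted p = 3.8e-05). *Muc13*, a membrane mucin, went from 13, 7.48 and 17.6 to 0.0695, 0.247 and 0.289 FPKM (-3.44, SE 0.230). *Ckb*, brain creatine kinase (-3.64, SE 0.359), and *Sprr1a*, an epithelial envelope protein (-3.47, SE 0.475), completed the 12 largest. Outside these 12, *Pdk4*, which shuts off pyruvate dehydrogenase, went from 29.5, 56.2 and 39.4 to 7.16, 3.13 and 2.99 FPKM (-3.01, SE 0.519), the largest change of 20 FOXO1 and insulin feedback genes, of which 7 fell and 1 rose.

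Most genes that were higher by treat had low values in vehicle tumors, with *Mcl1* as an exception. The median of the 65 genes was 1.25 FPKM with vehicle and 5.24 with MLN0128. For comparison, the 225 lower genes went from a median of 15.6 to 2.88 FPKM. *Clps* (chromosome 17, 28558149 to 28560766, minus strand), colipase, a secreted cofactor of pancreatic lipase, was at 0.0764, 0.0776 and 0 FPKM with vehicle and 16.5, 6.76 and 6.09 with MLN0128 (3.23, SE 0.491, adjusted p = 0.000812). *Ces3a*, a hepatocyte carboxylesterase with close copies that can share reads, rose from 0.977, 0.0361 and 3.33 to 10.9, 18.4 and 11.6 FPKM (2.79, SE 0.442), while normal livers averaged 1150. *Zfp264*, annotated as a transcribed unprocessed pseudogene, was at 0, 0 and 0.0152 FPKM against 5.53, 4.74 and 0.812 (2.02, SE 0.355). Replicate 3 was by far the lowest treated library for *Zfp264*.
*Kif12* (chromosome 4, 63165630 to 63172131, minus strand), a kinesin of liver and kidney epithelium, rose from 6.91, 5.23 and 4.98 to 28.2, 19.1 and 23.8 FPKM (1.88, SE 0.195, adjusted p = 0.000114). *Serpinh1*, the collagen chaperone HSP47, rose from 10.5, 6.12 and 13.8 to 47.0, 24.3 and 33.2 FPKM (1.70, SE 0.275). *Wfdc16* rose from 0.418, 0.340 and 0.769 to 5.93, 4.96 and 2.28 FPKM (1.78, SE 0.254). Of 10 tested markers of stellate cells and fibroblasts 0 passed, with a summed level of 33.0 to 78.1 FPKM with vehicle and 49.9 to 88.4 with MLN0128. The predicted genes *Gm37729* (2.33), *Gm43534* (2.07), *Gm47303* (1.93), *Gm32063* (1.74) and *Gm32540* (1.70) made up the rest of the 12 largest with *Mcl1*, and the sources used here do not say whether counting used strand, so reads of overlapping genes could be among theirs. The *Gm47303* call was lost with replicate 3 alone. All 24 of the largest falls and rises passed the moderated test with each library left out, and 23 with replicate 3 alone.

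**Figure D5:**
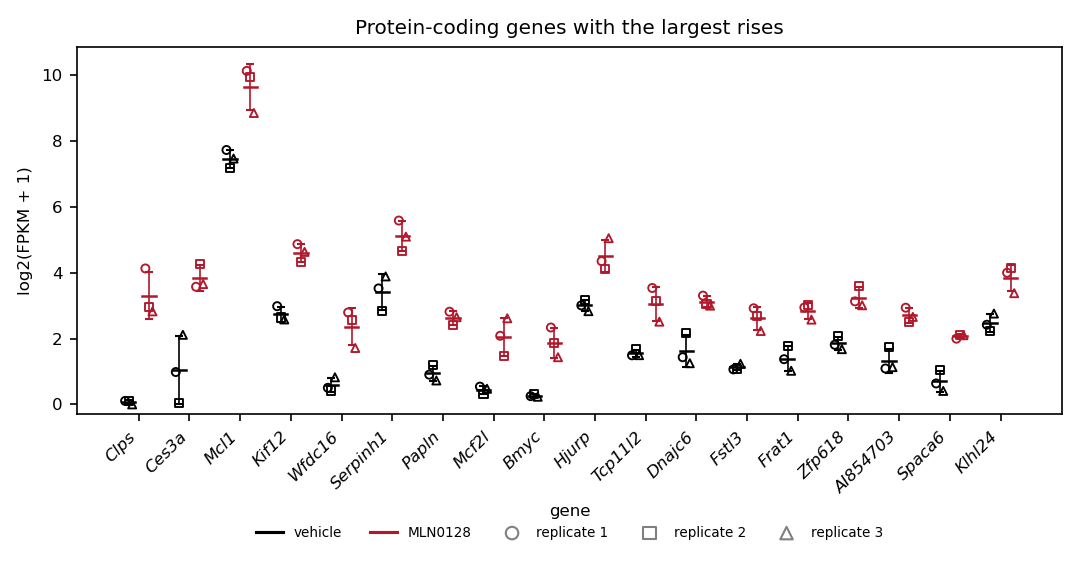
Points show log2(FPKM + 1) in each vehicle library (black) and MLN0128 library (red) for the 18 protein-coding genes that rose most past the treat test, with bars for the mean and SD. In all of them, from *Clps* (3.23) on, the red points lie above the black ones. This held for all 65 higher genes past treat, so it follows from the choice of genes.

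Everolimus, a rapamycin analog that acts on mTORC1 in part, was given at the same dose and times, and its tumors share the vehicle libraries as control. Values of both drugs are therefore set side by side, and the difference was tested directly between the drugs. *Chac1* was at 14.7, 12.4 and 23.6 FPKM with everolimus, above all 3 MLN0128 values (MLN0128 minus everolimus -3.55, SE 0.224, adjusted p = 2.42e-05). *Trib3* was at 15.1, 17.7 and 31.8 FPKM (-2.67, SE 0.382, adjusted p = 0.00639), and *Mthfd2* at 41.3, 28.4 and 60.6 (-2.88, SE 0.486, adjusted p = 0.00954). *Aars* was at 12.8, 13.4 and 18.1 FPKM (-1.54, SE 0.162, adjusted p = 0.00146), and *Msmo1* at 5.63, 11.5 and 8.66 (-2.10, SE 0.333, adjusted p = 0.00766). All 5 were lower with MLN0128 than with everolimus.
Other genes with large falls did not differ between the drugs beyond the spread. *Krt19* was at 0.257, 0.944 and 0.325 FPKM with everolimus (-0.01, SE 0.420, adjusted p = 0.99), *Muc13* at 0.0349, 0.391 and 0.119 (0.03, SE 0.230) and *Rsad2* at 0.452, 1.13 and 0.565 (0.06, SE 0.195). *Slc7a11* was at 0.167, 0.534 and 1.06 FPKM (-0.47, SE 0.223, adjusted p = 0.199). *Mcl1* was at 235, 354 and 270 FPKM and so lower than with MLN0128 (1.5, SE 0.293, adjusted p = 0.0137). Of the 162 genes named by rule, 54 differed between the drugs, beside 9.5% of all tested genes. The 162 were chosen mainly for a large change with MLN0128, so nothing is read from that count.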

How the data were processed

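RNA of 12 mice in 4 groups of 3 was sequenced by Novogene, and the labels name poly(A) capture or rRNA removal without saying which. The authors counted reads per Ensembl gene and deposited FPKM, rounded to 3 significant digits. The submitters' processing notes name GRCm38 and FastQC 0.11.7. The aligner and the gene lengths were not given in the sources used here. The authors' own tests used edgeR, which was not rerun, since FPKM are not counts.

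Values were taken as log2(FPKM + 1), so changes of low genes are understated. The 12 libraries and 4 groups entered a single linear model (R 4.3.3, limma 3.58.1; residual degrees of freedom 8, intensity trend), and the contrast MLN0128 minus vehicle was tested by the moderated test and by treat against a 1.5-fold change. Adjusted p-values are Benjamini-Hochberg over all tested genes, with a threshold of 0.05. An exact permutation test of 3 against 3 libraries cannot go below a p of 0.1 and was not used. Read numbers were recovered from FPKM and GENCODE exon lengths, as the depth at which low values fall on whole reads. The code was tested on simulated data. Positions came from GENCODE M21 (GRCm38) and promoters from RefSeq. Other motifs searched and not discussed were TCACGTGA, which overlaps the E-box, TCACNCCAC, CCAAT and TTTGAA, on both strands.

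Named by rule were the deleted and injected genes, the 12 largest rises and the 12 largest falls past treat without overlap, and in each list up to 4 members with the largest change past the moderated test, or the 2 most abundant where none passed. Genes printed outside this rule (*Adgre1*, *Arntl*, *Asns*, *Atf3*, *Atf4*, *Bbc3*, *Bcl2l11*, *Bmf*, *Csf1r*, *Ctsf*, *Ddit3*, *Fgf21*, *Gclm*, *Gdf15*, *H19*, *Hmox1*, *Hrk*, *Igf2*, *Irf9*, *Lamp1*, *Lyz2*, *Nfe2l2*, *Nfil3*, *Phgdh*, *Psat1*, *Qars*, *Slc7a1* and *Stc2*) were chosen after their values were seen. Some members of the lists are not reported here by name. The members and the lists were chosen with earlier results of these data known. Replicate numbers do not pair the samples: deviations of same-numbered libraries correlated at -0.159, -0.222 and 0.0421. Alternatives covered the pseudocount, filter, scaling, threshold, model, a replicate block, the recovered reads with voom, and libraries left out. Python libraries were pandas 2.3.3 and, for figures, matplotlib 3.10.9.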

Additional observations from a re-analysis of the deposited data

How the results depend on the processing

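The counts of 225 lower and 65 higher genes depended on the setting. With a pseudocount of 0.1 FPKM they were 344 and 210, and with 0.5 the higher count was 127. Plain library totals gave 188 higher. With only the 6 libraries in the model they were 141 and 22, with voom on the recovered reads 451 and 273, and without both MLN0128 libraries that held *Xist* 27 and 3. The moderated test gave 2365 and 2073, and 1542 and 1131 when a 1.5-fold change was also asked for. Leaving out each library in turn gave 96 to 261 lower and 15 to 122 higher. With the replicate number as a replicate block they were 82 and 6, and since the numbers do not pair the mice, a call lost there does not show a weaker effect. The causes of these shifts were not tested.

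Of the 162 genes named by rule, 156 passed the moderated test, 155 of these kept their direction in every alternative run, and 88 passed in all of them. The rule took genes past a test wherever a list had any, so these counts describe the named genes and are no result. Signs turned for *Aldh1l2* without both libraries with *Xist* (0.085) and for 5 genes that missed the test. *Myc* turned with plain library totals (0.024) and ran from -0.209 to 0.059 with 1 library left out. *Cdc20* turned with quantile normalization (0.132) and without both libraries with *Xist* (0.932) and ran from -0.729 to 0.276. *Ccnb2* turned without both libraries with *Xist* (0.444). *Rplp1* turned with plain totals (0.098), was at 0.0 with quantile normalization and ran from -0.336 to 0.154. *Rplp0* turned without both libraries with *Xist* (-0.162) and ran from -0.041 to 0.175.

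Groups of 3 mice limit the calls. At these depths, genes near 0 rest on few reads. The fit takes its spread from all 4 groups. Sex content is mixed within the MLN0128 group, while all 3 vehicle libraries held Y-linked reads. It therefore also differs between the compared groups, and its part in the changes of autosomal genes was not tested.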

Other observations

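Clock genes moved in both directions. Of 19 tested circadian genes 5 fell and 6 rose, and 4 or 5 fell and 6 or 7 rose with each library left out. *Arntl*, which encodes the activator BMAL1, was at 1.88, 2.20 and 1.59 FPKM with vehicle and 0.211, 0.817 and 0.172 with MLN0128 (log2 fold change -1.07, SE 0.189, moderated adjusted p = 0.00177 in limma). *Nfil3* went from 18.9, 19.8 and 19.7 to 9.14, 9.59 and 6.42 FPKM (-1.14, SE 0.155). Both were named after their values were seen. *Per3* rose from 0.738, 0.420 and 0.491 to 2.86, 3.50 and 1.62 FPKM (1.21, SE 0.199), and *Dbp*, an output gene of the clock, from 1.37, 1.09 and 1.48 to 4.28, 5.08 and 3.28 (1.16, SE 0.216). The groups did not overlap, and the calls of *Per3* and *Dbp* were lost with MLN0128 replicate 3 alone. The hour at which tissue was taken was not given in the sources used here.

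Liver-specific enzymes differed among the treated libraries. Against the vehicle mean, 35 cytochrome P450 and drug conjugation genes had a median of 0.10 in MLN0128 replicate 1, 0.87 in replicate 2 and -0.55 in replicate 3. Genes known to be higher in female liver had medians of 0.45, 0.75 and -0.56 over 19 tested members, and those higher in male liver -0.07, 0.05 and 0.20 over 26. Replicates 1 and 2 are the libraries with *Xist*. Replicate 3 was also lowest for some lists not chosen by sex. Urea cycle and amino acid catabolism stood at -0.31, 0.68 and -0.91, and fatty acid oxidation and ketogenesis at -0.13, 0.49 and -0.58. The mitosis list was highest in replicate 3, at 0.52. The cause of these differences was not tested.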
